A study of Mus musculus with 6 samples.

Results

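The respiratory chain and ATP synthase of mouse cardiomyocytes were examined through the nuclear genes that encode their subunits. Members were taken by symbol, as genes of the Ndufa, Ndufb, Ndufc, Ndufs, Ndufv, Uqcr, Atp5, Cox4i, Cox5, Cox6, Cox7 and Cox8 families with Sdha, Sdhb, Sdhc, Sdhd and Cyc1, and without assembly factors of the Ndufaf family, pseudogenes and the isoform pairs Cox6a1, Cox6a2, Cox7a1, Cox7a2, Cox8a and Cox8b. This gave 83 genes, of which 82 were among the 27179 genes of the bulk table. Complex I held 39 of them, complex II 4, complex III 9, complex IV 14 and complex V 17, with Ndufa4 and its paralog Ndufa4l2 placed in complex IV.

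Immature cardiomyocytes (imCMs) of newborn C57BL/6 mice (C57BL/6J in the study's methods) had been cultured with cardiac fibroblasts of neonatal hearts (NFs) or of adult hearts (AFs), and the question was how the age of the fibroblasts bears on the cardiomyocytes. Bulk RNA-Seq covered sorted imCMs from co-culture with NFs (imCM-NF, n = 2 libraries) and from co-culture with AFs (imCM-AF, n = 2 libraries). Single cells of the co-cultures were captured on 2 nanowell chips, 1 labelled cardiomyocytes and 1 labelled fibroblasts, with a unique molecular identifier (UMI) on each transcript. Per the study's methods the fibroblasts had been passaged before use, and the imCMs came from hearts at postnatal day 1. No genotype or drug differed between the groups. The study's methods state that fewer NFs than AFs were plated per imCM, to allow for NF proliferation. Fibroblast age and the number plated therefore cannot be told apart. Nothing in the labels says that the 2 libraries of a group came from separate cultures, so p-values measure only the spread between these libraries.

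Oxidative phosphorylation passes electrons from NADH through complex I, or from succinate through complex II, to complex III and on to complex IV, which reduces oxygen. Complexes I, III and IV pump protons across the inner mitochondrial membrane, and complex V uses the gradient to make ATP. A small set of core subunits is encoded by mitochondrial DNA, and the others are made from nuclear genes. The heart depends on this pathway more than most tissues, and its share of the transcriptome grows as cardiomyocytes mature after birth.

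Total counts were 9278909 to 12088577 per bulk library, and 14041 genes passed the filter on low values (a CPM, the count of a gene scaled to a fixed library total, above 1 in at least 2 libraries). Cardiomyocyte markers summed to between 34158 and 48274 CPM per library, against 9451 to 19099 CPM for fibroblast markers. Of the fibroblast markers, 8 of 10 were lower in imCM-AF at an adjusted p under 0.05, with a median log2 fold change of -0.62, as were 7 of 9 endothelial and 3 of 9 macrophage markers. Of 13 cardiomyocyte markers, 2 were higher and 0 were lower by edgeR's quasi-likelihood test, with 4 higher and 0 lower at an unadjusted p under 0.05 and 1 higher and 0 lower in DESeq2. Of 8 smooth muscle or pericyte markers 1 was higher and 1 lower, and of 5 tested epicardial or mesothelial markers 1 was lower. Over all tested genes, 12.5% were higher and 14.5% lower at edgeR's adjusted p. An unadjusted p under 0.05 in edgeR took 18.9% and 20.4%, and DESeq2's adjusted p 6.49% and 7.54%. The median log2 fold change over all tested genes stood at 0.0011.

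Of the 83 members, 78 passed the filter on low values. Ndufb1 is not analysed in bulk. Ndufb4b had 1 count and Ndufb4c 2 counts over all libraries, and Cox7b2 and Cox8c, known as testis isoforms, had 0. Mean levels of tested members ran from 1.75 CPM for Cox6b2 to 3696 CPM for Atp5b, the catalytic beta subunit of ATP synthase, with a median of 221.3 CPM against 24.98 CPM over all tested genes. Scaled to transcript length, Atp5b was again highest with 1929 CPM per kilobase. The highest of the other complexes on that scale were Cox6b1 with 1237, the hinge protein gene Uqcrh with 772, Ndufb9 with 404.3 and the iron-sulfur subunit gene Sdhb with 291.4 CPM per kilobase.

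Promoters are shown for 6 members picked by hand among those whose values recur below. Transcription factors such as NRF1, the ETS factor GABP, ERR, YY1 and SP1 are known to act on respiratory chain genes. Each line is a RefSeq window of build GRCm38.p6 around an annotated start, from 250 bases before it to 50 bases after. Capitals mark letters that matched a motif. The Atp5g3 window lies wholly within the gene (chr2:73908447-73912464, minus strand) rather than at its outer end. The motifs searched on both strands were GCGCATGC (NRF1), CCGGAAGT (ETS), TGACCTTG (ERR), AAGATGGC (YY1) and GGGCGG (SP1). Ndufab1 (chr7:122101799-122102098, minus strand) holds an SP1 match, Ndufa11 (chr17:56717512-56717811, plus strand) and Atp5k (chr5:108434350-108434649, minus strand) hold overlapping NRF1 matches on both strands, and Ndufc1 (chr3:51408906-51409205, minus strand) holds a YY1 match. Uqcr11 (chr10:80406772-80407071, minus strand) holds an ETS and an NRF1 match, and Atp5g3 (chr2:73911277-73911576, minus strand) an ERR match.
Ndufab1: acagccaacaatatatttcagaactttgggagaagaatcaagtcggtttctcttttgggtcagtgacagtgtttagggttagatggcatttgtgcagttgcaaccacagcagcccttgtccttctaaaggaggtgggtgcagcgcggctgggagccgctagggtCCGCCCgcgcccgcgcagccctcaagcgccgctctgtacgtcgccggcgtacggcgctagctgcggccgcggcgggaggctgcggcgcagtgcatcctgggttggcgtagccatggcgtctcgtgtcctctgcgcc
Ndufa11: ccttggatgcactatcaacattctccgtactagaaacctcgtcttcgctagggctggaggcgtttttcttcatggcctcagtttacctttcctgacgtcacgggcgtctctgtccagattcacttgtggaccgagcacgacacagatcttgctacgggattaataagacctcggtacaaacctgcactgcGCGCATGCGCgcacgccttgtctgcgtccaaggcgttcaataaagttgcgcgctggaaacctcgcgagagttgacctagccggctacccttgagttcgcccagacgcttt
Ndufc1: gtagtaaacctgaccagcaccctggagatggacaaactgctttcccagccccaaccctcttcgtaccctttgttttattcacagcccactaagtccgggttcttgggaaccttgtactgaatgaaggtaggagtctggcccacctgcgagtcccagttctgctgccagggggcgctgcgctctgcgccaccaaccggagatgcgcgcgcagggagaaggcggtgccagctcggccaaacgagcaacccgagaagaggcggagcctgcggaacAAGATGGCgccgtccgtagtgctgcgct
Uqcr11: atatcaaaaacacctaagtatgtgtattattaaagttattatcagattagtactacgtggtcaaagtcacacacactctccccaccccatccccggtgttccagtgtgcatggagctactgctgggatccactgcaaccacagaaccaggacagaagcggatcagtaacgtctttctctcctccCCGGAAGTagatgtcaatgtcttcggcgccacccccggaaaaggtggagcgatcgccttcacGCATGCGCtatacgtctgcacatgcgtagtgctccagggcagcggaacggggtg
Atp5k: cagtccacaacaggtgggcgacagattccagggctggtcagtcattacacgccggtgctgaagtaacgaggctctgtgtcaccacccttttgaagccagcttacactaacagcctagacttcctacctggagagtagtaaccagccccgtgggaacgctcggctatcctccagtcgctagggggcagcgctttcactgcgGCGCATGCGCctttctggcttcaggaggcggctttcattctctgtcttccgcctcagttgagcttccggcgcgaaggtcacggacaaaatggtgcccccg
Atp5g3: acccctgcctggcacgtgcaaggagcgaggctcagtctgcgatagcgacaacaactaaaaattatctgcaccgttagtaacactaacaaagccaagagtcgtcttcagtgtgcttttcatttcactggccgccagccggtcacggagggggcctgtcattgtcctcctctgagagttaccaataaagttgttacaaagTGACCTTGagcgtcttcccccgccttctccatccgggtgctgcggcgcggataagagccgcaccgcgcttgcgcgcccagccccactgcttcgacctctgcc

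The reference table held 71 windows for 66 of the 83 members. The NRF1 letters were found in 9 of 66 members (13.6%) against 3.05% of all 27025 genes with a window, and the YY1 letters in 10 of 66 (15.2%) against 3.19%. ERR letters were found in 4 members (6.06%) against 1.76% of all genes, ETS letters in 4 (6.06%) against 4.31%, and SP1 letters in 27 (40.9%) against 38.2%. Matches of different motifs overlapped in 0 of the 71 windows. None of the motifs was found in 24 of the 66 members, against 15290 of all 27025 genes, although each of the 6 promoters shown holds a match. A match here is a match of letters only. NRF1 letters were found in 3 of 34 members of complex I, 1 of 3 of complex II, 2 of 5 of complex III, 0 of 9 of complex IV and 3 of 15 of complex V. YY1 letters were found in 7 members of complex I and 3 of complex V, and in 0 of the others with a window.

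As a whole, the subunit genes were at nearly the same level in imCM-AF and imCM-NF. Members took 2.58% and 2.30% of all counts with NFs and 2.59% and 2.58% with AFs. Their summed level was 26704 and 22923 CPM with NFs and 25497 and 25533 CPM with AFs, so the 2 imCM-NF libraries lay on either side of both imCM-AF libraries. The log2 ratio of the group means was 0.040. In a bulk library, a change in the share of cardiomyocytes cannot be told apart from a change in RNA per cell.

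**Figure D1:**
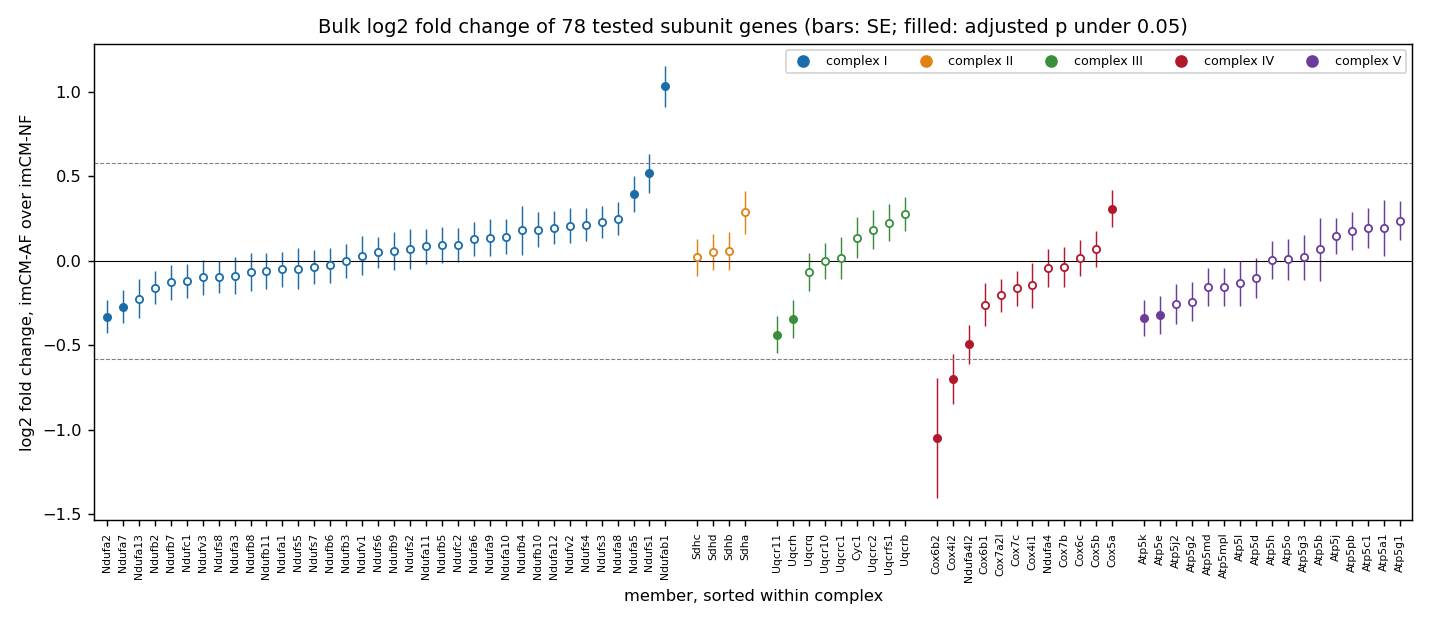
Log2 fold change of the 78 tested members in bulk, imCM-AF over imCM-NF (n = 2 libraries per group), sorted within each complex. Bars are SE, filled points have an adjusted p under 0.05 (edgeR), and dashed lines mark 0.58 in either direction. Ndufab1 lies above and Cox6b2 and Cox4i2 lie below the dashed lines, and 61 of the 78 lie within 0.25 of 0.

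Of 78 tested members, 1 was called higher in imCM-AF and 2 were called lower, taking both an adjusted p under 0.05 (edgeR) and a log2 fold change beyond 0.58 in either direction. Over all 14041 genes these calls took 6.15% (higher) and 4.99% (lower), 11.1% in either direction. At the adjusted p alone, 4 members were higher and 9 were lower, against 12.5% and 14.5% of all genes. The median log2 fold change of the members was 0.012, and their median absolute log2 fold change was 0.14 against 0.24 over all genes. The sets are not matched for level, with a median of 221.3 CPM for members and 24.98 CPM for all genes. Both imCM-AF libraries lay above both imCM-NF libraries for 24 members and below them for 18, while 32.1% and 33.8% of all genes were so arranged. The complexes had medians of 0.05 (I), 0.05 (II), 0.02 (III), -0.15 (IV) and 0.0039 (V).

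Complex I, the entry point of NADH electrons, held the called rise. Ndufab1 (Entrez 70316, GRCm38 chromosome 7, 122086815 to 122101848) encodes the mitochondrial acyl carrier protein, which serves fatty acid and lipoate synthesis and is also a complex I subunit. Its level was 23.5 and 32.5 CPM with NFs and 57.7 and 58.1 CPM with AFs. The groups did not overlap, and the log2 fold change was 1.03 ± 0.12 (SE, n = 2 per group, edgeR adjusted p 1.39e-05). The call remained under every alternative run, with log2 fold changes from 0.83 to 1.31. Of the 50-base windows of a Ndufab1 transcript, 31.2% are also found in transcripts of other genes, pseudogenes among them, so reads that map uniquely cover only part of it and its counts are uncertain.

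The core iron-sulfur subunit gene Ndufs1 of complex I was also higher, from 206.6 and 166.8 CPM with NFs to 253.8 and 280.1 CPM with AFs. Its log2 fold change was 0.52 ± 0.11 (adjusted p 0.0032 by edgeR), below the fold threshold. The accessory subunit gene Ndufa5, chosen after its values were seen, rose from 132 and 107.2 CPM to 155.1 and 158.8 CPM, or 0.40 ± 0.11 as a log2 fold change (adjusted p 0.0113 by edgeR). The accessory subunit genes Ndufa2 and Ndufa7 were lower, at -0.33 ± 0.098 and -0.27 ± 0.097 (adjusted p 0.0187 and 0.0465 by edgeR). Ndufa2 had 145.7 and 128.5 CPM with NFs and 108.4 and 109.3 CPM with AFs, with no overlap. Both of these falls missed the threshold in DESeq2 (adjusted p 0.0682 and 0.15). Ndufa5 missed the adjusted p threshold when either replicate 2 was dropped (0.112 and 0.052), Ndufa2 without imCM-NF replicate 1 or either imCM-AF replicate (0.0866 to 0.122), and Ndufa7 whichever library was dropped (0.0549 to 0.395) and with RLE, upper-quartile or total-count scaling (0.0519 to 0.0938). The other 31 of 36 tested members of complex I did not pass the adjusted p.

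Complex II, succinate dehydrogenase, is the enzyme shared with the tricarboxylic acid cycle and is encoded in the nucleus throughout. All 4 subunit genes had small positive log2 fold changes, and 0 passed the adjusted p in edgeR, DESeq2 or limma-voom, with 1 (Sdha) at an unadjusted p under 0.05. Sdha, the flavoprotein that oxidises succinate, had 625.8 and 513.5 CPM with NFs and 695.8 and 692.3 CPM with AFs. Its groups did not overlap, but the log2 fold change of 0.29 ± 0.13 had an edgeR adjusted p of 0.107. Sdhb, Sdhc and Sdhd, the last pair being the membrane anchors, had log2 fold changes of 0.06, 0.02 and 0.05, each with an SE of 0.11, and their groups overlapped.

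In complex III, which passes electrons to cytochrome c, the small subunit genes Uqcr11 and Uqcrh were lower in imCM-AF. Uqcr11 had 255.9 and 209.1 CPM with NFs and 172.3 and 170.9 CPM with AFs, or -0.44 ± 0.11 as a log2 fold change (adjusted p 0.00724 by edgeR). Uqcrh had 430.9 and 389.1 CPM with NFs and 310.6 and 335.5 CPM with AFs, or -0.34 ± 0.11 as a log2 fold change (adjusted p 0.0293 by edgeR). In neither gene did the groups overlap. Uqcr11 missed the threshold without imCM-AF replicate 2 (adjusted p 0.0518), and Uqcrh without imCM-NF replicate 1 or either imCM-AF replicate (0.0804 to 0.261) and with total-count scaling (0.0535). Uqcrb and the Rieske protein gene Uqcrfs1 had the highest values of the complex, 0.27 ± 0.10 and 0.22 ± 0.11 (adjusted p 0.0523 and 0.141 by edgeR), and the Uqcrb value passed the threshold with RLE, upper-quartile or total-count scaling (0.0256 to 0.0448) and without imCM-NF replicate 1 (0.0142). Cyc1, the cytochrome c1 gene, had 602.7 and 537.8 CPM with NFs and 641.2 and 612.7 CPM with AFs, or 0.14 ± 0.12 as a log2 fold change (adjusted p 0.426 by edgeR).

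Complex IV, cytochrome c oxidase, had 9 of 12 tested members with a negative log2 fold change, and 7 of the 12 lay within 0.25 of 0. The median over all tested genes was 0.0011. Both called falls were in this complex, Cox4i2 with a mean of 15.7 CPM and Cox6b2 with 1.75 CPM. Cox4i2 (Entrez 84682, GRCm38 chromosome 2, 152753916 to 152765039), an isoform of the regulatory subunit 4 linked to lung and to low oxygen, had 20.3 and 18.6 CPM with NFs and 13.2 and 10.7 CPM with AFs. The groups did not overlap, and the log2 fold change was -0.70 ± 0.15 (adjusted p 0.00248 by edgeR). Without imCM-AF replicate 2 the adjusted p was 0.055. The testis-type isoform gene Cox6b2 (Entrez 333182, GRCm38 chromosome 7, 4751792 to 4753094) was close to the detection limit, at 2.23 and 2.48 CPM with NFs and 1.37 and 0.924 CPM with AFs. Its log2 fold change was -1.05 ± 0.36 (adjusted p 0.0374 by edgeR), and the call was lost in DESeq2 (adjusted p 0.245) and after dropping either imCM-NF library or imCM-AF replicate 2 (0.0518 to 0.31).

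Ndufa4l2, the hypoxia-induced paralog of Ndufa4, was lower as well, from 30.3 and 29.0 CPM to 21.1 and 21.0 CPM, or -0.49 ± 0.12 as a log2 fold change (adjusted p 0.0046 by edgeR). The common forms did not pass the test. Cox4i1 had 1002 and 853 CPM with NFs and 862.3 and 814.8 CPM with AFs, with a log2 fold change of -0.15 ± 0.13, and Ndufa4 had a log2 fold change of -0.04 ± 0.11. Cox6b1 was at -0.26 ± 0.13, Cox7c at -0.16 ± 0.10 and Cox7b at -0.04 ± 0.12. Cox7a2l, a factor that joins complexes III and IV rather than a subunit of the enzyme, was at -0.20 ± 0.097. Cox5b did not pass the test, at 0.07 ± 0.11. Cox5a was the member of complex IV that rose, from 404.6 and 386.3 CPM to 502.3 and 477.2 CPM, or 0.31 ± 0.11 as a log2 fold change (adjusted p 0.0486 by edgeR). Cox5a missed the threshold without imCM-NF replicate 2 and without each imCM-AF replicate (adjusted p 0.118 to 0.238).

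Complex V, ATP synthase, had a median near 0. Atp5k and Atp5e, which encode small subunits of the membrane part and of the central stalk, were lower in imCM-AF. Atp5k had 214 and 177.2 CPM with NFs and 153.8 and 154.9 CPM with AFs, or -0.34 ± 0.11 as a log2 fold change (adjusted p 0.0252 by edgeR). Atp5e had 238.6 and 205 CPM with NFs and 190.6 and 164.4 CPM with AFs, or -0.32 ± 0.11 as a log2 fold change (adjusted p 0.0392 by edgeR). Both missed the threshold in DESeq2 (adjusted p 0.0644 and 0.0926). Atp5k also missed it without imCM-NF replicate 1 or either imCM-AF replicate (0.121 to 0.145), and Atp5e after dropping imCM-AF replicate 2 (0.423) or imCM-NF replicate 1 (0.182) and with upper-quartile or total-count scaling (0.0561 and 0.0709). The catalytic subunit genes Atp5a1 and Atp5b had log2 fold changes of 0.20 ± 0.17 and 0.07 ± 0.18, and Atp5g1 of the membrane ring had 0.24 ± 0.11 (adjusted p 0.132 by edgeR).

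Members with short transcripts had lower log2 fold changes than members with long ones. Median transcript lengths ran from 321.5 to 2900 bases over the 78 tested members. The 39 at or under 751 bases had a median log2 fold change of -0.05 and the 39 longer ones 0.07, with a Pearson r of 0.49 and a Spearman rho of 0.50 between log2 length and log2 fold change. Over 12663 protein-coding genes tested, r was 0.11 and rho 0.16, and the 388 genes at or under that length had a median of -0.18. These correlations are across genes, which share the same libraries and are not independent replicates.

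**Figure D2:**
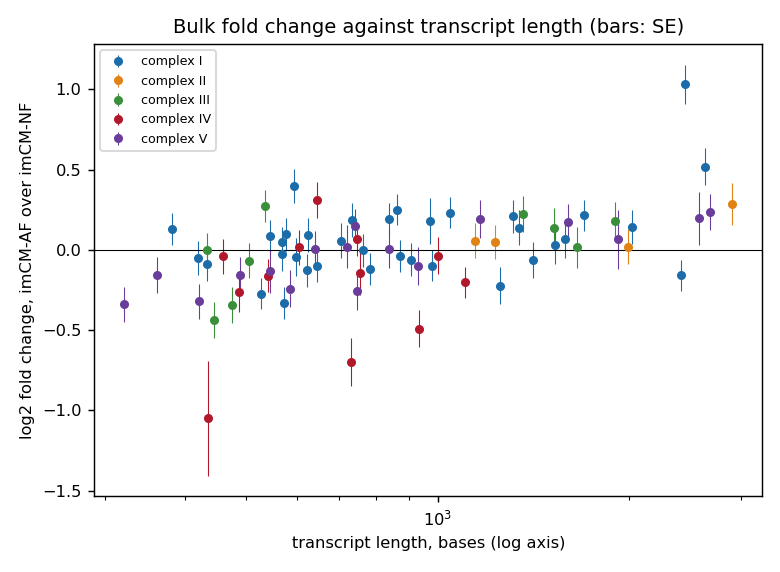
Log2 fold change in bulk (imCM-AF over imCM-NF, vertical axis, bars are SE) against median transcript length in bases (log axis) for 78 members, coloured by complex. The long transcripts on the right include Ndufab1 at 1.03 and Ndufs1 at 0.52, and the 39 members at or under 751 bases have a median of -0.05.

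Other genes of the pathway were taken from lists written for comparison. Of 47 assembly factors of the 5 complexes, 14 were higher in imCM-AF and 0 lower at an adjusted p under 0.05 in edgeR, with a median log2 fold change of 0.17. DESeq2 gave 8 higher and 0 lower (6.49% and 7.54% of all genes), limma-voom 15 and 0 (12.3% and 14.2%), and an unadjusted p under 0.05 in edgeR 18 and 2 (18.9% and 20.4%). Among them Ndufaf4, an assembly factor of complex I, had 26.1 and 21.3 CPM with NFs and 34.7 and 42.5 CPM with AFs, or 0.72 ± 0.13 as a log2 fold change (adjusted p 0.00067 by edgeR). Ttc19 of complex III (0.59 ± 0.13), Cox18 of complex IV (0.59 ± 0.13) and Atpaf1 of complex V (0.67 ± 0.19) were called as well. Of 17 genes listed for the tricarboxylic acid cycle, with Pdha1, Pdhb, Dlat and Pdhx of pyruvate dehydrogenase, 6 were higher and 0 lower. DESeq2 gave 5 and 0, and an unadjusted p under 0.05 in edgeR 10 and 0. Their median was 0.28, led by Sucla2 (0.52 ± 0.11) and the dehydrogenase subunit gene Dld (0.46 ± 0.099). The 14 genes listed for electron carriers were Cycs and the Pdss and Coq genes of coenzyme Q. Of these, 6 were higher and 1 lower with a median of 0.24. Of 21 genes listed for mitochondrial translation and import, 5 were higher and 1 lower with a median of 0.09. That list also held Tfam, Polg and other genes of mitochondrial DNA replication and transcription. For the counts at edgeR's adjusted p, 12.5% of all genes were higher and 14.5% lower.

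For subunits encoded by mitochondrial DNA 1 library stood apart. Of 13 such genes, 7 were tested, with a median log2 fold change of 0.48 and 0 past an adjusted p of 0.05 in edgeR, DESeq2 or limma-voom, while 4 were higher at an unadjusted p under 0.05 in edgeR. Their summed level was 21930 and 22504 CPM with NFs and 21646 and 39365 CPM with AFs, so that imCM-AF replicate 2 alone stood above the others.

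Single cells separated the cardiomyocytes from the other cells of the co-culture. Wells carry names given by the authors, AFNCM, NFNCM and NCM0 on the cardiomyocytes chip and AF and NF on the fibroblasts chip, each with a number, and the labels do not say whether numbered names are separate cultures. After filters set from the study's description 2195 wells remained, 1490 of them with co-culture names, the rest being NCM0 and the fibroblast names AF0 and NF0, which the labels do not explain. Single-cell levels are given as CPM of the nuclear-gene UMIs of the pooled cells. Barcodes shared by both chips numbered 269. Wells were clustered without the members and without mitochondrially encoded genes, and clusters were called cardiomyocyte-like or fibroblast-like from markers. The isoform pairs left out of the members stayed in the clustering. Cox8b, Cox7a1 and Cox6a2 were among the top 10 genes of clusters 1 and 7, and Cox7a1 among those of clusters 5 and 6. The clusters are therefore not independent of respiratory chain genes. Each chip is 1 library, so no test was made, and the intervals given are exact 95% intervals that cover counting error only.

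Cardiomyocyte-like cells gave several times as many of their UMIs to the subunit genes as fibroblast-like cells did. In cardiomyocyte-like cells named NFNCM, 16.3% of nuclear-gene UMIs came from members (348 cells, 9178526 UMIs, exact binomial interval 16.29% to 16.34%). In fibroblast-like cells the share was 3.36% in NF (208 cells) and 3.17% in AF (195 cells). All 5 complexes had a larger share in cardiomyocyte-like cells, and of 74 members with at least 50 UMIs in NFNCM cardiomyocyte-like and NF fibroblast-like cells, 68 were above a log2 ratio of 1, against 9.97% of all genes so compared. The median log2 ratio of the members was 2.26, while that of all genes was -0.53. Between AFNCM cardiomyocyte-like and AF fibroblast-like cells, 67 of 74 members were above a log2 ratio of 1, against 10.6% of all genes. These comparisons set cells of the cardiomyocytes chip against cells of the fibroblasts chip, so cell class and chip cannot be told apart in them. On the cardiomyocytes chip itself, fibroblast-like cells had a share of 4.16% in NFNCM (86 cells) and 4.96% in AFNCM (114 cells).

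The size of the ratio between NFNCM cardiomyocyte-like and NF fibroblast-like cells, again across chips, differed between members. Ndufa11, an accessory subunit of the membrane arm of complex I, was 13.0-fold higher in cardiomyocyte-like cells, at 5010 CPM in NFNCM against 385 in NF. The Rieske gene Uqcrfs1 was 8.73-fold, Cox6c 8.09-fold and the ring subunit gene Atp5g3 8.26-fold higher, the largest ratios of complexes III, IV and V. The smallest were Ndufb6 with 1.36-fold in complex I, Uqcrq with 3.89-fold in complex III, Cox5a with 1.198-fold in complex IV and Atp5d with 1.97-fold in complex V. In complex II the ratios ran only from 3.64-fold for Sdhb to 4.401-fold for Sdhd. Cox5a gave just 13.8 CPM in NFNCM cardiomyocyte-like cells although it had 443 CPM in bulk, so its single-cell value rests on 127 UMIs.

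Among cardiomyocyte-like cells, those named AFNCM gave a smaller share of UMIs to the members than those named NFNCM. The share was 13.8% in AFNCM (193 cells, exact binomial interval 13.78% to 13.83%) against 16.3% in NFNCM. By numbered name it was 14.4%, 13.7% and 13.6% in AFNCM and 16.2%, 16.7% and 16.0% in NFNCM, with no overlap. The cells named NCM0 had 17.2% and 13.4% under their 2 numbers, a gap wider than that between AFNCM and NFNCM. Cardiomyocyte markers took 6.68% of UMIs in AFNCM and 6.52% in NFNCM, and the median UMI total per cell was 33285 and 22804.

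**Figure D3:**
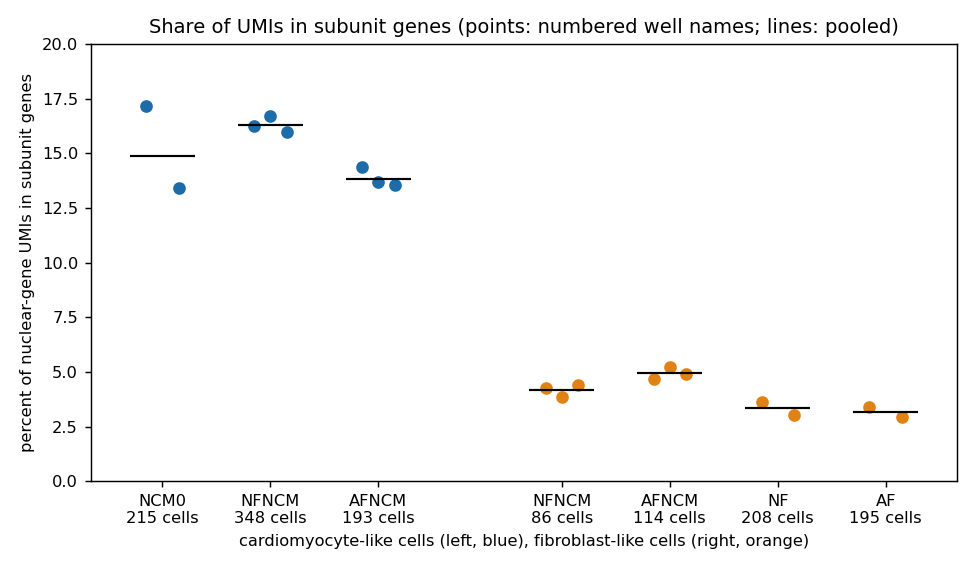
Share of nuclear-gene UMIs from members, in percent, in cardiomyocyte-like cells (left) and fibroblast-like cells (right) by well name. Points are the numbered names within a well name and lines the pooled share. The 3 AFNCM points lie between 13.6% and 14.4%, all below the 3 NFNCM points between 16.0% and 16.7%, while the NCM0 points lie at 17.2% and 13.4%.

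Different clusters hold most of the cardiomyocyte-like cells of the 2 names. In AFNCM 132 of 193 cells were in cluster 6 (14.7% of UMIs from members), and in NFNCM 207 of 348 were in cluster 1 (17.9%) and 86 in cluster 5 (16.1%). Within cluster 1 the share was 16.4% in 17 AFNCM cells and 17.9% in 207 NFNCM cells, and within cluster 9 it was 10.9% in 16 and 13.7% in 18 cells. Cluster 2, with a median of 5000 UMIs and 1 cardiomyocyte marker among its top 10 genes, was left unnamed. In it 8 cardiomyocyte markers, 1 macrophage marker and 0 fibroblast markers were raised over the other wells. Cardiomyocyte markers took 3.43% of its UMIs in AFNCM and 3.54% in NFNCM. Cluster 2 held 27.3% of kept AFNCM wells, 12.6% of NFNCM wells and 6.61% of NCM0 wells, and members took 8.95% of its UMIs in AFNCM and 9.48% in NFNCM.

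The lower share in AFNCM was spread over the complexes. Complex I took 5.52% of UMIs in AFNCM and 6.40% in NFNCM, complex II 0.20% and 0.23%, complex III 2.17% and 2.53%, complex IV 2.49% and 3.09%, and complex V 3.42% and 4.06%. Of 75 members with at least 50 UMIs in both, 71 had a log2 ratio under 0, and 4 were over 0, against 41.6% and 58.4% of all 7958 genes so compared. For 44 members every numbered AFNCM name lay below every NFNCM name, and for 1 above, while 5.94% and 9.58% of all genes were so arranged. The median log2 ratio was -0.23 for the members and 0.08 for all genes. By fold the change was small. Ndufs5 alone, with 9.66 CPM in AFNCM and 16.9 CPM in NFNCM, was lower by more than 0.58 on the log2 scale. That is 1 member, against 5.15% of all genes, and 0 were higher by as much, against 13.1%. The Ndufs5 value rests on 69 UMIs in AFNCM and 155 in NFNCM, and its numbered names overlapped. Of its 50-base windows, 35.6% are also found in transcripts of another gene.

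Uqcr11 gave 4593 CPM in AFNCM (exact Poisson interval 4544 to 4643) and 6029 in NFNCM (5979 to 6079). By numbered name Uqcr11 had 4881, 4461 and 4546 in AFNCM and 5902, 6098 and 6053 in NFNCM, with no overlap. Cox6c had 6188 and 8135 CPM, Cox4i1 5291 and 6227, and Atp5g3 2513 and 3311. Uqcrc2, a core protein of complex III, went the other way, with 281.9 CPM in AFNCM and 243.7 in NFNCM, and each AFNCM name lay above each NFNCM name. The catalytic genes Atp5a1 and Atp5b had log2 ratios of -0.02 and -0.04, and Ndufs1 of -0.02.

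Ndufab1 did not show its bulk rise in the single cells. It gave 1657 CPM in AFNCM (exact Poisson interval 1627 to 1687) and 1983 in NFNCM (1954 to 2012), a log2 ratio of -0.26. Each numbered AFNCM name, at 1587, 1675 and 1681, lay below each NFNCM name, at 1975, 2016 and 1954. Bulk gave Ndufab1 a mean of only 42.9 CPM.

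**Figure D4:**
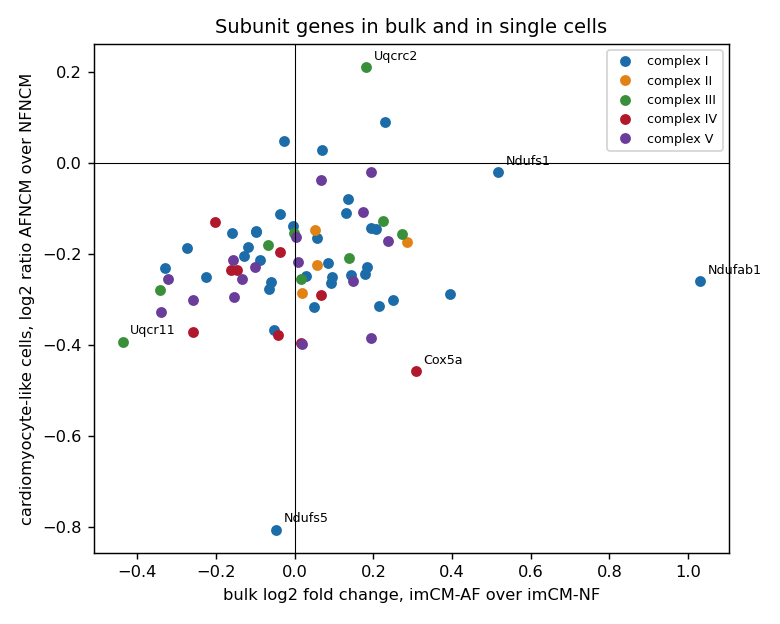
Bulk log2 fold change (imCM-AF over imCM-NF, horizontal axis) against the log2 ratio of CPM in cardiomyocyte-like cells (AFNCM over NFNCM, vertical axis) for 74 members, coloured by complex. Most points lie below 0 on the vertical axis and on both sides of 0 on the horizontal axis, with Ndufab1 at 1.03 and -0.26.

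Over 74 members measured in both, the bulk log2 fold change and the single-cell log2 ratio had a Pearson r of 0.19 and a Spearman rho of 0.22, given as a description across genes. Both were negative for 32 members, and 38 were positive in bulk and negative in single cells. Transcript length was related to the single-cell ratio too, with r of 0.36 and rho of 0.35, and medians of -0.25 for the 37 shorter and -0.17 for the 37 longer members. Bulk libraries hold all cells of the sorted fraction and count reads along the transcript, while the single-cell ratio uses 1 cell class and counts UMIs.

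In fibroblast-like cells of the fibroblasts chip the members were close between AF and NF. The share was 3.39% and 2.95% under the 2 AF names and 3.63% and 3.05% under the 2 NF names, which overlapped. The median log2 ratio of 74 members was -0.03, with 39 under 0 and 35 over 0 against 45.6% and 54.4% of all genes, and 3 members lower by more than 0.58 on the log2 scale (Ndufc1, Ndufs1 and Atp5d, chosen after their values were seen) against 12.7%. Higher by more than 0.58 were 0 members, against 18.2% of all genes. Ndufc1 had 832.3 CPM in AF and 1379 in NF, the largest log2 ratio in size among the 74 members with at least 50 UMIs in both. Fibroblast-like cells on the cardiomyocytes chip had a higher share, 4.96% in AFNCM and 4.16% in NFNCM. There cardiomyocyte markers took 1.17% and 0.39% of UMIs, against 0.019% in AF and 0.16% in NF, and their part in the higher share was not tested.

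The isoforms that were lower in bulk imCM-AF were scarce in AFNCM and NFNCM cardiomyocyte-like cells. Cox4i2 had 23 UMIs over 193 AFNCM cardiomyocyte-like cells, or 3.22 CPM (exact Poisson interval 2.04 to 4.83), and 7 UMIs over 348 NFNCM cells, or 0.763 (0.307 to 1.57). The 11 cardiomyocyte-like cells named NF held 5 UMIs of Cox4i2, or 15.5 CPM (5.03 to 36.2). In fibroblast-like cells it had 32.0 CPM in AFNCM (26.5 to 38.4) and 19.8 in AF (16.7 to 23.3), but 1.72 in NFNCM (0.468 to 4.398) and 2.502 in NF (1.33 to 4.28). Its common counterpart Cox4i1 had 954.6 CPM in AF and 894.2 in NF. Cox6b2 had 4.53 CPM in AF fibroblast-like cells (3.12 to 6.36) and 0.385 in NF (0.0466 to 1.39), and 1.12 and 0.654 in AFNCM and NFNCM cardiomyocyte-like cells. Its highest level was 35.6 CPM (22.8 to 53.0) in 15 endothelial-like cells named AF, which rests on 24 UMIs. Ndufa4l2 did not exceed 2.61 CPM in these classes, although bulk gave it 21.0 to 30.3 CPM. Cox4i2 and Cox6b2 were thus lower with AFs in bulk, and higher with AFs in single fibroblast-like cells. In cardiomyocyte-like cells Cox4i2 was also higher in AFNCM than in NFNCM, while the Cox6b2 intervals overlapped. Fibroblast markers fell in bulk imCM-AF with a median of -0.62. On the cardiomyocytes chip, however, fibroblast-like cells made up 114 of 509 kept AFNCM wells and 86 of 517 kept NFNCM wells. Endothelial-like cells there numbered 55 in AFNCM and 10 in NFNCM. The part of the fibroblast content in the bulk values was not tested.

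**Figure D5:**
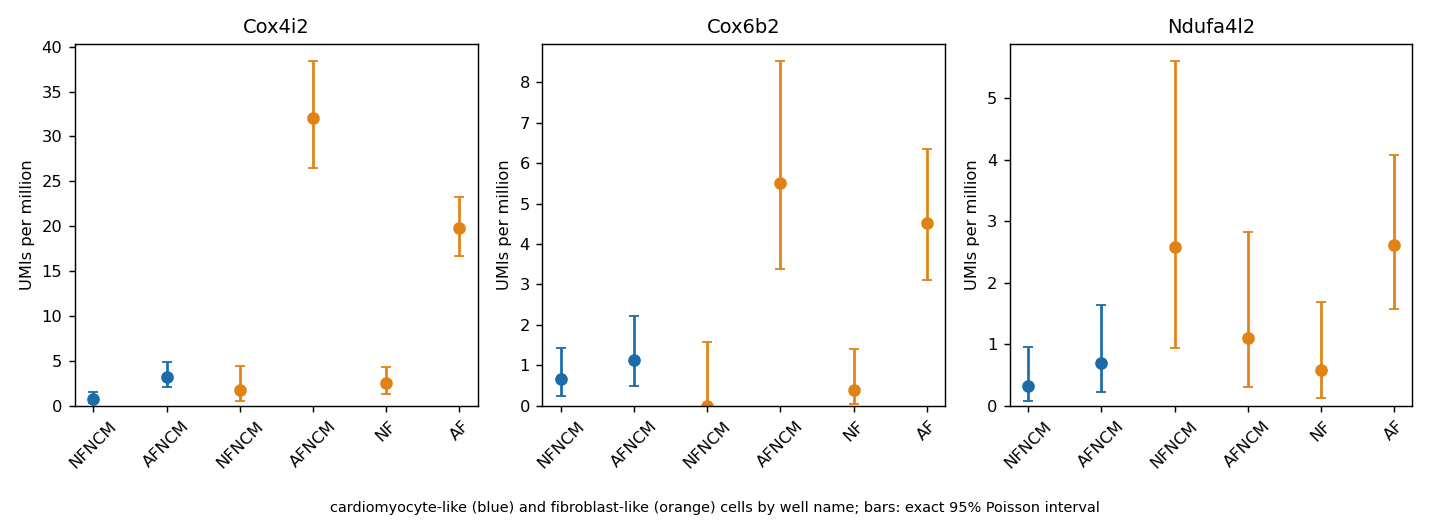
CPM of Cox4i2, Cox6b2 and Ndufa4l2 in cardiomyocyte-like cells (blue) and fibroblast-like cells (orange) by well name, with exact 95% Poisson intervals that cover counting error only. Cox4i2 reaches 32.0 and 19.8 in fibroblast-like cells named AFNCM and AF and stays at or under 3.22 in the other groups plotted.

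Some members cannot be counted cleanly because the genome holds near-identical copies. More than 50% of the 50-base windows of a transcript were found in other genes for Atp5g2 (87.4%), Atp5l (68.5%), Cox7c (53.0%) and Atp5h (50.5%), and over 25% for 13 of 80 members. Ndufb4c, a copy of Ndufb4 that GENCODE M21 lists as a processed pseudogene, had 2 counts in bulk and 257 CPM in NFNCM cardiomyocyte-like cells, and Atp5g2 had 29.0 CPM in bulk and 0.109 CPM in those cells. Values of these members depend on how reads with several origins were handled.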

How the data were processed

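The bulk table holds raw counts per Entrez gene as deposited by the authors, who aligned reads to mm10 with Subread and assigned unique reads to RefSeq genes with featureCounts. The single-cell tables hold UMI counts per gene and well as deposited by the authors, who aligned with STAR 2.5.2b. Whether counting used strand is not stated. Bulk CPM values and log2 fold changes come from edgeR 4.0.16 in R 4.3.3 (TMM scaling, quasi-likelihood test, Benjamini-Hochberg adjustment over 14041 genes with a CPM over 1 in at least 2 libraries, a substitute for the RPKM filter of the study). The threshold of 0.58 is the study's. The tests were also tried on simulated data. For a log2 change of 0.5, edgeR recovered 104 of 200 genes at an adjusted p under 0.05, DESeq2 57 and limma-voom 102. For a log2 change of 1.5 the numbers were 194, 178 and 193. Changes of 0.5 or less can thus be missed. Libraries with the same replicate number did not deviate together (correlation -0.18 over genes). Replicates differed beyond counting noise (chi-square per degree of freedom 8.60 and 8.42).

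The study states 1648 sequenced cells, the number of co-culture wells in the files, and the filters as read here (500 or more genes, more than 50% of read pairs aligned, UMIs no more than 2 SD from their mean) kept 1490 of them, fewer than the study kept, and which step differs is not known. Control wells, 20 in all, were left out. Doublets were not called. Clusters came from scanpy with Leiden at a resolution of 1, and a low-depth cluster with fewer than 2 markers among its top 10 genes stayed unnamed, a rule set after seeing the data.

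Lengths are medians of protein-coding transcripts of GENCODE M21. Coordinates are those of RefSeq GRCm38.p6, the assembly of mm10. Members, lists and the rule for naming genes were chosen with earlier results of these data known. The rule names called members, the 2 highest and 2 lowest log2 fold changes of each complex, the highest level per length, significant members of opposite sign to their complex, isoforms, complex II with Cyc1, untested members, the leading list genes and the single-cell extremes. The alternatives tried were other scalings, DESeq2, limma-voom, other filters and thresholds, a replicate block, leaving out each library, and other cell sets and denominators.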

Additional observations from a re-analysis of the deposited data

How the results depend on the processing

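The count of called members was 3, and it was 2 or 3 with other scalings, DESeq2, limma-voom and other filters. It was 13 with the adjusted p alone, 2 with an absolute log2 fold change over 1, and 1 to 4 when libraries were left out in turn. Leaving out imCM-AF replicate 2 left 1 call, Ndufab1. Over all genes 1564 were called, and 879 to 1929 when libraries were left out in turn (879 when imCM-NF replicate 2 was dropped and 988 for imCM-AF replicate 2). Medians of the complexes moved by more than the replicate spread only in some of these cases: complex I ranged from -0.0424 to 0.163, complex IV from -0.239 to -0.0276 and complex V from -0.13 to 0.12. The replicate block gave 2 called members and 6 at the adjusted p alone, and the crossed pairing, chosen after seeing the data, gave 3 and 27, against 3 and 13 without a block. Under the block Cox6b2, Ndufa2, Ndufa7, Uqcrh, Cox5a, Atp5k and Atp5e missed the adjusted p threshold (0.0593 to 0.181 by edgeR).

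Of members not past the threshold, Cox7b turned to 0.0075 and Ndufa4 to 0.0033 with total counts alone. When libraries were left out in turn, values crossed 0 and ranged from -0.038 to 0.188 for Atp5b, -0.136 to 0.0756 for Cox7b, -0.149 to 0.0806 for Ndufa4, -0.0644 to 0.196 for Ndufb9, -0.0339 to 0.16 for Sdhb, -0.0883 to 0.142 for Sdhc and -0.0312 to 0.143 for Sdhd. The other members whose bulk log2 fold change is printed above kept their direction under every alternative run.

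The UMI shares moved with the cell set, and AFNCM stayed below NFNCM in each. With all wells of at least 1 UMI the shares were 10.03% (AFNCM), 13.1% (NFNCM), 3.36% (AF) and 3.99% (NF), and with all kept wells 9.89%, 13.3%, 3.32% and 3.91%. Classes by marker share gave 11.4%, 14.6%, 3.16% and 3.40%, mitochondrially encoded UMIs in the denominator 10.9%, 12.6%, 2.92% and 3.02%, and medians over cells 13.9%, 16.7%, 3.24% and 3.33%. With the unnamed cluster 2 they were 13.0% and 16.1%, added after seeing the data.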
